A study of Mus musculus with 12 samples.

Results

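The forkhead (Fox) and Sox genes form a pair of families of transcription factors, and all their protein-coding members were followed in RNA-seq of cerebellum from mice with a conditional knockout of Eed. Members were the protein-coding genes whose symbol is Fox with a letter from a to s and a number, or Sox with a number: 63 genes, 44 Fox and 19 Sox, of 55385 listed. The compared groups were 3 EED-/- libraries, from Eed conditional knockouts, and 3 WT libraries, all of C57BL/6 mice at postnatal day 14. No label states a Cre driver, a deleted exon or the cells that lost Eed. Whether each library came from its own animal is likewise unstated, so the p-values reflect the spread of these 6 libraries, which may be technical. The 6 ChIP-seq samples of the series were not analysed here.

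Forkhead proteins bind DNA through a winged-helix domain and Sox proteins through an HMG box related to that of SRY. Both families divide the body and brain between their members: some build tissues outside the cerebellum (Foxa in endoderm and floor plate, Foxc in mesenchyme, Foxd3 in neural crest), others serve neurons (Foxp, SoxC) or glia (SoxB1, SoxD and SoxE). Eed is a core subunit of Polycomb repressive complex 2, which places H3K27me3 on histone H3 and is known to hold many developmental transcription factor genes silent, typically at CpG-rich promoters.

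Eed averaged 10.7 ± 1.23 CPM in EED-/- and 23.4 ± 3.23 CPM in WT libraries (SD, n = 3 each), and the groups did not overlap. Its fold change on the log2 scale was -1.12 (SE 0.15, adjusted p = 0.0015). CPM are estimated counts scaled by TMM to 1000000 per library, and triplets of values are of replicates 1, 2 and 3 in that order. Each ± is the SD of 3 libraries. Fold changes are of EED-/- over WT. Adjusted p-values come from the quasi-likelihood test of edgeR, adjusted by Benjamini-Hochberg over all 18091 genes tested, and a gene is called where that value is under 0.05. Libraries held 19621814 to 20366173 counts. The summed level of 12 granule neuron markers was 725 to 952 CPM in EED-/- and 5587 to 6904 CPM in WT libraries, with 12 of 12 lower, while 10 Purkinje cell markers summed to 4312 to 5913 CPM in EED-/- and 4115 to 4804 CPM in WT libraries, with none of the 10 called and 2 at an unadjusted p under 0.05; 1 was called higher by DESeq2 and in edgeR fits with upper-quartile scaling, library size alone, no filter, and without WT replicate 1 or WT replicate 2. Skeletal muscle markers summed to 72.2 to 116 CPM in EED-/- and 3.67 to 4.67 CPM in WT libraries, with 8 of 9 higher. In bulk tissue, a change in the number of cells of a type and a change in RNA per cell cannot be told apart.

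Promoters of members that stood at opposite ends of the results are shown first, since Polycomb targets are known for dense CG dinucleotides. Each is the run of 250 bases before the annotated start, 5′ to 3′ on the gene's strand, from RefSeq's GRCm38.p6 promoter windows, with every CG in capitals. Foxd3 and Sox14 had the largest fold changes among tested members, Foxa2 the largest count ratio among untested ones with a WT count, Foxn1 stayed at 1 count in all 6 libraries together, and Foxo3 was among the called lower members. They were picked after the values were seen.
Foxd3 (plus strand, chr4:99656049-99656298): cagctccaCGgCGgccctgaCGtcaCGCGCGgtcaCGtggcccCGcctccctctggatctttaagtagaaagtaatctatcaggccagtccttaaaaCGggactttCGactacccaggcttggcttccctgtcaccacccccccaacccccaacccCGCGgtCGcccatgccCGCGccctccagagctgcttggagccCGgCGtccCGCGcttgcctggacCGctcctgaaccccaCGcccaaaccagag
Sox14 (minus strand, chr9:99876171-99876420): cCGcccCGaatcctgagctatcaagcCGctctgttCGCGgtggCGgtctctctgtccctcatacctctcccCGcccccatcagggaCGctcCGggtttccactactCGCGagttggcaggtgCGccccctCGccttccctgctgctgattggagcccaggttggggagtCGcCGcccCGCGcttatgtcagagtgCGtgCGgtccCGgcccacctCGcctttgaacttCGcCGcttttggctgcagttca
Foxa2 (minus strand, chr2:148046970-148047219): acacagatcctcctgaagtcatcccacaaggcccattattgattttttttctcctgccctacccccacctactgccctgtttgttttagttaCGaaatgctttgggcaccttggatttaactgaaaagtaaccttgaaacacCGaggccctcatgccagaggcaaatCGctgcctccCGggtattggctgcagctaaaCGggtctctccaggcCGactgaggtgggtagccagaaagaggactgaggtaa
Foxn1 (minus strand, chr11:78386609-78386858): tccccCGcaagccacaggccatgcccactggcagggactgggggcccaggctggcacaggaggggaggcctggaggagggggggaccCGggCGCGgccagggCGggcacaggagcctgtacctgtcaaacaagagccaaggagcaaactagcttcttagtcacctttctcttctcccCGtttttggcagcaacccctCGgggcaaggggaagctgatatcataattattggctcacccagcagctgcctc
Foxo3 (minus strand, chr10:42276696-42276945): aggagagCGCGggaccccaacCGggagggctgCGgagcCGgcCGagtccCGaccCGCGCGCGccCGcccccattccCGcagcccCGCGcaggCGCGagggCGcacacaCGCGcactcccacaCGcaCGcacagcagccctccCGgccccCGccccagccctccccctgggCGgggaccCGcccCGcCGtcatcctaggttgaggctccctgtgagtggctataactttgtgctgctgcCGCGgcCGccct
The 250 bases hold 21 CG pairs in Foxd3, 23 in Sox14, 6 in Foxa2, 7 in Foxn1 and 31 in Foxo3. CG was dense in Foxd3 and Sox14, which rose, and in Foxo3, which fell, and sparse in Foxa2, whose counts were higher in EED-/- libraries.

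Windows of 250 bases before to 50 after the start matched 41 of 63 members by symbol. A window was taken as CpG-rich where the observed over expected number of CG, which reads the same on both strands, was at least 0.6 and GC content at least 50%. At least 1 CG was in all 41 windows and in 94.6% of the 32841 windows of all genes, and the median number was 22 in members and 7 in all windows. By the CpG-rich measure 27 of 41 members (65.9%) were CpG-rich, beside 33.5% of all 32841 windows in the table. The share was 6 of 7 among called higher members, 2 of 4 among called lower members and 12 of 14 among tested members that were not called. It was 16 of 20 for members used in WT and 8 of 16 for those silent in WT, a description with no test. The windows of the lower genes Foxn3 and Sox5, which were CpG-poor, lie far inside the genes from the annotated GENCODE starts. Windows of Foxp3 and Foxp1, also CpG-poor, and of Foxj3, CpG-rich, lie 6032, 1728 and 2657 bases from those starts. Unmatched members included Foxb1, Foxc2, Foxe1, Foxf1, Foxh1, Foxj1, Foxk1, Foxl1, Foxm1, Foxn2, Foxo4, Foxo6, Foxp2, Foxq1, Foxs1, Sox10, Sox17, Sox18, Sox3, Sox7 and Sox9.

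Of the 63 members, 44 had enough counts to be tested (27 Fox, 17 Sox), 12 were higher in EED-/- libraries and 5 lower. Foxd3, Sox14, Foxb1, Foxd1, Foxc2, Sox3, Sox21, Sox6, Foxc1, Foxj1, Foxm1 and Sox2 rose, and Foxn2, Foxo3, Foxj2, Foxn3 and Sox5 fell. Over all tested genes 11.7% were called higher and 14.1% lower, against 27.3% and 11.4% of the tested members. In 4 of the 44 the WT libraries alone were under the filter on low counts (about 10 per library); of the other 40, 10 were higher and 5 lower. The median log2 change was 0.36 over the tested members and -0.03 over all tested genes. Of the 44 tested members 29 had no overlap between genotypes, the 17 called ones among them, beside 43.9% of all tested genes. With upper-quartile scaling, which moved the median of all genes up by 0.117 on the log2 scale, 15 members were higher and 3 lower, and with library size alone 14 and 3. Foxd3, Sox14, Foxb1, Sox21, Sox6, Foxc1, Foxn2, Foxo3 and Foxj2 stayed called in each of 13 alternative fits, whereas Sox5 lost its call in 9 of them, Foxn3 in 8, Foxm1 in 6, Sox3 in 5, Sox2 and Foxc2 in 4, Foxd1 in 3 and Foxj1 in 2. Without EED-/- replicate 1, EED-/- replicate 2 or WT replicate 3 the higher members numbered 7, 6 and 7, and without EED-/- replicate 3 they numbered 18. EED-/- replicate 3 was the lowest EED-/- library for 9 of the 12 higher members and for 29 of the 44 tested ones, against 39.4% of all tested genes.

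**Figure D1:**
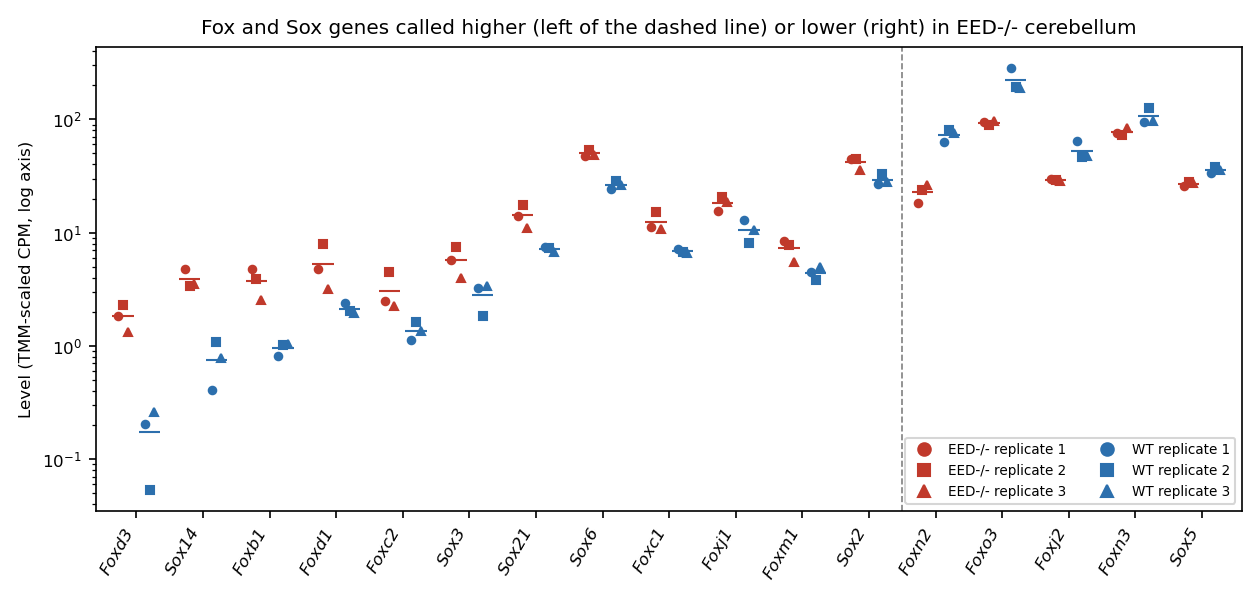
Level of the 17 called Fox and Sox genes in each library (y axis, TMM-scaled CPM, log axis; horizontal lines are means of 3 libraries), with the 12 higher genes left of the dashed line. No EED-/- point lies among the WT points of the same gene, and the widest separation is that of Foxd3.

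Members were split by their mean WT level: silent under 0.5 CPM, low from 0.5 to under 5 CPM, and used at 5 CPM or more. This gave 20 silent, 13 low and 30 used members. Since the split uses WT values, it partly fixes the direction a gene can take, so each class is set beside all tested genes of the same WT class and no test was made between classes. Among the low members 6 of 12 tested were higher and the others were not called, beside 15.7% higher and 6.68% lower of all tested low genes. Of the 10 of these that passed the filter through WT libraries alone, 5 were higher. Among the used members 5 of 30 were higher and 5 lower, beside 8.71% and 17.8% of all tested used genes. The median log2 change was 0.80 in the 12 tested low members and -0.04 in the 30 used members, beside 0.15 and -0.08 over all tested genes of those classes. The 12 include Sox14 and Foxr2, whose WT libraries alone were under the filter, and no median was taken without them.

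**Figure D2:**
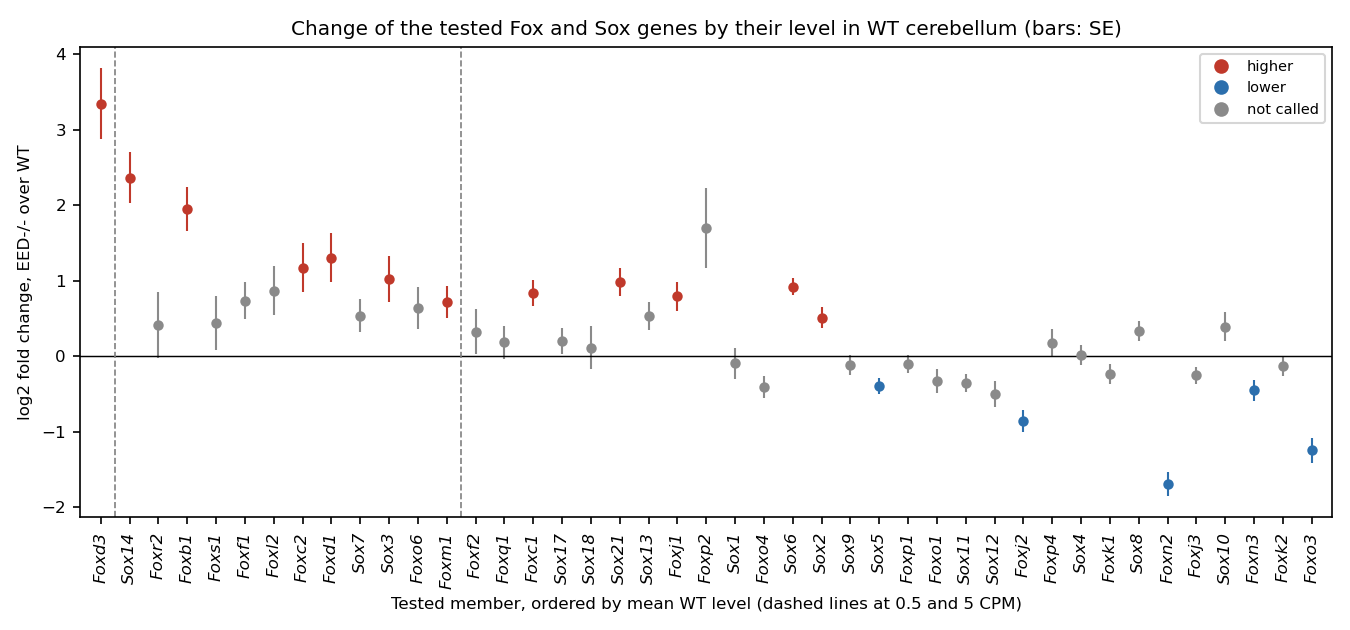
Log2 fold change of EED-/- over WT (y axis; bars are SE) for 43 tested members, ordered along the x axis by mean WT level, with dashed lines at 0.5 and 5 CPM. Points left of the second line lie above 0, and those right of it fall on both sides, with Foxn2 the lowest.

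The silent members were for the most part still near 0 in EED-/- cerebellum. Foxe3 and Foxi3 had 0 counts in all 6 libraries, which allows up to 3 counts over a group, and Foxi1, Foxi2, Foxn1 and Foxn4 had 1 or 2 in all. Foxe3 serves the lens, Foxi genes the ear and ectoderm, Foxn1 the thymus and skin, and Foxn4 retinal and spinal interneurons. Foxa3, Foxb2, Foxh1, Foxl1, Foxr1, Sox15 and Sox30 had 0 to 11 counts over either group of 3 libraries. Counts were higher in the EED-/- sum for 13 of the 20, a direction that the limit on the WT level partly fixes. Among the 13, Foxi1 and Foxn1 rest on 1 count against 0. No share over all genes silent in WT is set beside this number.

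Foxd3 was the one member of this class called with the filter on low counts, which it passed through its EED-/- libraries. Foxd3, a factor of neural crest and of pluripotent cells (ENSMUSG00000067261.4, chromosome 4, 99656299 to 99658622, GRCm38), had 39, 49 and 27 counts in EED-/-, against 4, 1 and 5 counts in WT. Every EED-/- library held at least 27 counts and no WT library more than 5. Its level was 1.82 ± 0.492 CPM in EED-/- and 0.172 ± 0.106 CPM in WT libraries, and the log2 fold change was 3.35 (SE 0.47, adjusted p = 0.00164). All tested genes silent in WT were called higher in 40.1% of cases, and listed protein-coding genes of that class, tested or not, in 2.84%.

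Foxa1 and Foxa2, the pioneer factors of endoderm, floor plate and midbrain dopamine neurons, missed the filter because EED-/- replicate 3 was low. Foxa2 had 26, 19 and 5 counts in EED-/-, against 0, 0 and 1 in WT. The ratio of the sums, 50 against 1, was 45.8 with a 95% exact binomial counting interval of 7.84 to 1843. Foxa1 had 22, 15 and 6 counts in EED-/-, against 3, 2 and 0 in WT. The lowest EED-/- library was above the highest WT library for each gene. Fitted by edgeR without the filter, the log2 fold change was 5.10 for Foxa2 (SE 0.87, adjusted p = 4.32e-05) and 2.91 for Foxa1 (SE 0.69, adjusted p = 0.00252), and DESeq2 also called both (adjusted p = 0.00231 and 0.0319).

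Genes of dopamine neurons were looked at after the Foxa values were seen. The dopamine transporter Slc6a3 was at 61.2, 12.9 and 1.47 CPM in EED-/-, against 0.667, 0.215 and 0.465 CPM in WT. Th, the rate-limiting enzyme of dopamine synthesis, was at 30.9, 12.5 and 8.32 CPM in EED-/-, against 7.18, 6.44 and 6.87 CPM in WT. Neither was called (adjusted p = 0.0564 and 0.0644), although DESeq2 called both higher, as did edgeR without EED-/- replicate 3 and, for Slc6a3, without EED-/- replicate 1. EED-/- replicate 1 was the highest library for both, as for Foxa1 and Foxa2. It was also the highest for Foxb1, Foxm1, Sox2 and the summed level of blood genes, so this is not particular to dopamine neuron genes. Of 10 dopamine neuron genes, a list written after these values were seen, 9 were tested, 3 rose (Slc18a2, Ddc and En1) and Nr4a2 fell, a call lost in 6 of 13 alternative fits, with sums of 182 to 291 CPM in EED-/- and 142 to 179 CPM in WT libraries. The part of these cells in the Foxa values was not tested.

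**Figure D3:**
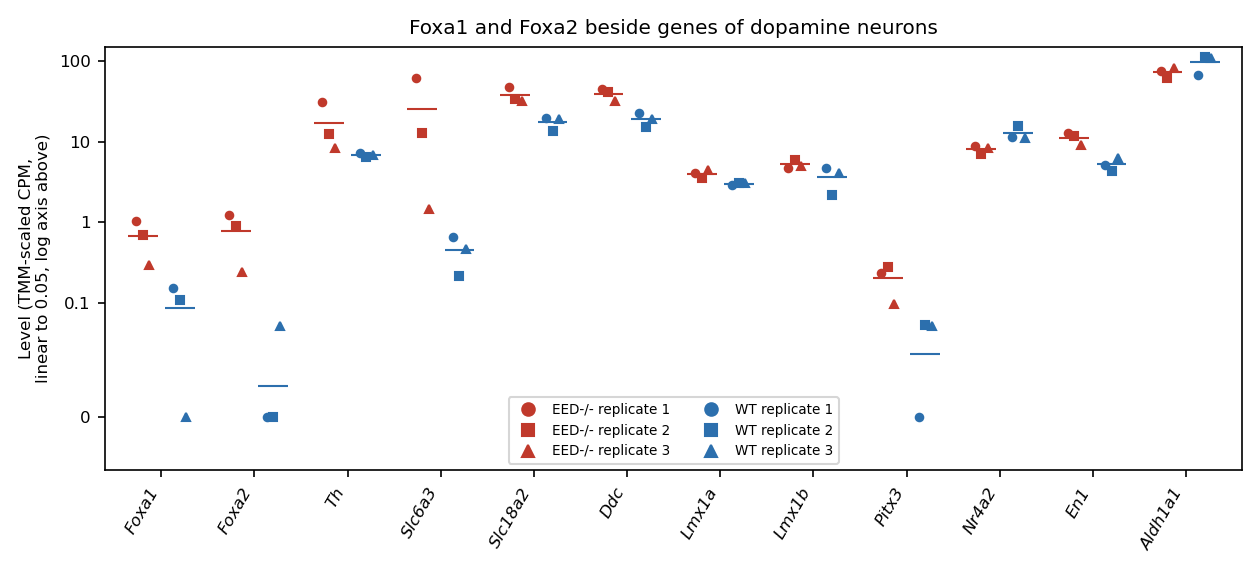
Level of Foxa1 and Foxa2 and of all 10 listed genes of dopamine neurons in each library (y axis, TMM-scaled CPM, linear to 0.05 and log above; horizontal lines are means of 3 libraries). Among EED-/- libraries replicate 1 is the highest and replicate 3 the lowest for Foxa1 and Foxa2 and for 5 of the 10 listed genes (Th, Slc6a3, Slc18a2, Ddc and En1), and not for Lmx1a, Lmx1b, Pitx3, Nr4a2 and Aldh1a1.

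Further silent genes with signal came from the Foxd and Foxe groups. Foxd4 had 5, 11 and 6 counts in EED-/-, against 1, 1 and 0 in WT, a ratio of 10.1 with a 95% counting interval of 2.47 to 88.3. Foxe1, a factor of thyroid development, had 5, 4 and 4 counts in EED-/- libraries against 0 in each WT library, at least 3.97-fold higher when WT is set at a floor of 3 counts over its 3 libraries. Foxd2 had 19, 11 and 2 counts in EED-/-, against 1, 5 and 1 in WT, so the genotypes overlapped. Without the filter edgeR called Foxa1, Foxa2, Foxd3, Foxd4 and Foxe1, 5 of the 18 silent members with any count, beside 7.04% of protein-coding genes and 2.18% of all genes silent in WT with any count. Foxd2 was not called there (adjusted p = 0.0854) but was called higher without EED-/- replicate 3. Intervals and floors cover counting error only, and no label mentions molecular identifiers.

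**Figure D4:**
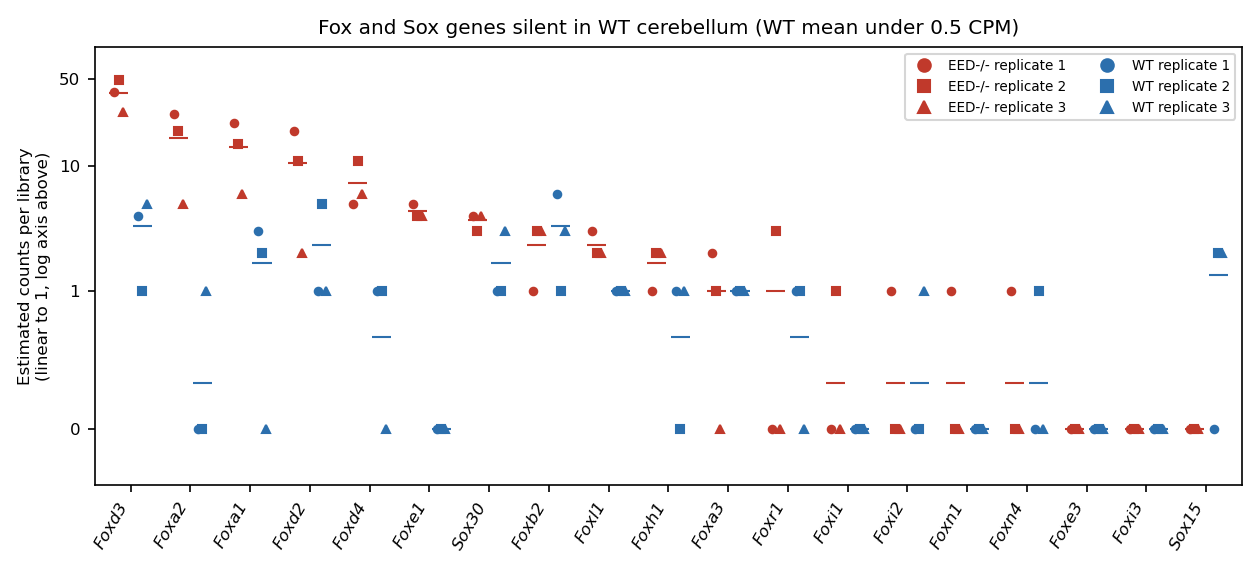
Estimated counts per library (y axis, linear to 1 and log above; horizontal lines are means of 3 libraries) of 19 members silent in WT, ordered by their summed EED-/- counts. Foxd3 separates by genotype, and the genes on the right are at or near 0 everywhere.

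Sox14 and Foxb1, markers of embryonic neurons of the diencephalon, midbrain and hindbrain, had the largest rises among the low members. Sox14, of the SoxB2 repressors (ENSMUSG00000053747.9, chromosome 9, 99874106 to 99876170), was at 4.78, 3.39 and 3.52 CPM in EED-/-, against 0.410, 1.07 and 0.775 CPM in WT. The lowest EED-/- library stood above every WT library, and the log2 fold change was 2.37 (SE 0.34, adjusted p = 0.00188). Its WT libraries held 8, 20 and 15 counts and alone were under the filter on low counts. Sox14 thus passed that filter only with its EED-/- libraries. Foxb1 (ENSMUSG00000059246.4, chromosome 9, 69757710 to 69760940) was at 4.73, 3.90 and 2.55 CPM in EED-/-, against 0.821, 1.02 and 1.03 CPM in WT. It rose 3.88-fold (log2 fold change 1.96, SE 0.29, adjusted p = 0.00224). B230323A14Rik, a noncoding gene on the opposite strand whose exons overlap those of Foxb1, rose 3.99-fold (adjusted p = 0.00309). No source used here states whether counting used strand, so reads of this pair cannot be told apart.

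The second SoxB2 gene rose as well. Sox21, which acts in neural progenitors and glial precursors, was at 14.1, 17.4 and 11.1 CPM in EED-/-, against 7.54, 7.35 and 6.72 CPM in WT. The WT libraries lay close together and below each EED-/- library (log2 fold change 0.98, SE 0.19, adjusted p = 0.00636). Gm4675, an opposite-strand gene that overlaps it, was under 1.1 CPM in every library and not called. Both SoxB2 members, Sox14 and Sox21, were thus higher.

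SoxB1 factors keep neural progenitors and glia in a proliferative or stem-like state. Sox2 was at 45.1, 44.6 and 35.7 CPM in EED-/-, against 27.04, 32.8 and 28.2 CPM in WT (log2 fold change 0.51, SE 0.14, adjusted p = 0.0250). Sox3 was at 5.68, 7.43 and 3.96 CPM in EED-/-, against 3.23, 1.82 and 3.36 CPM in WT (log2 fold change 1.02, SE 0.30, adjusted p = 0.0388). For each the groups did not overlap, but EED-/- replicate 3 came near the WT range. Sox1 was at 18.1, 23.4 and 14.4 CPM in EED-/-, against 24.5, 16.5 and 18.9 CPM in WT, and was not called (adjusted p = 0.771). Sox1ot, the noncoding gene that spans Sox1 on the same strand, rose 2.45-fold to 12.6 ± 1.54 CPM in EED-/-, against 5.14 ± 1.55 CPM in WT libraries (adjusted p = 0.0050), and Sox2ot around Sox2 was not called (adjusted p = 0.0690) but was called higher in 7 of 13 alternative fits. Of 12 genes linked to SoxB1 factors 2 rose and 2 fell. Nes, the intermediate filament of progenitors, rose 1.67-fold (adjusted p = 0.0113) and Shh 1.53-fold (adjusted p = 0.0455, a call lost in 8 of 13 alternative fits), whereas Gpm6a fell 1.89-fold (adjusted p = 0.00646) and Fgf5 2.35-fold (adjusted p = 0.0109). The higher count went from 0 without WT replicate 3 to 4 with upper-quartile scaling, and was 1 without EED-/- replicate 1 or 2, WT replicate 2 or the filter, under the replicate block and with DESeq2.

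The SoxD genes, which lack an activation domain and modulate other Sox factors, did not move together: Sox6 rose and Sox5 fell. Sox6, which marks oligodendrocyte progenitors in brain, was at 47.7, 54.0 and 48.4 CPM in EED-/-, against 24.3, 28.5 and 26.5 CPM in WT. The libraries of each genotype lay close together (log2 fold change 0.92, SE 0.11, adjusted p = 0.000996). Sox5 was at 25.6, 28.2 and 27.4 CPM in EED-/-, against 33.6, 37.9 and 35.5 CPM in WT. It fell 1.32-fold (log2 fold change -0.40, SE 0.11, adjusted p = 0.0274). Sox13 averaged 15.0 ± 3.48 CPM in EED-/- and 10.4 ± 0.309 CPM in WT libraries and was not called (adjusted p = 0.0669), though it was called higher without the filter (adjusted p = 0.0355), with upper-quartile scaling (adjusted p = 0.0325), with library size alone (adjusted p = 0.0443) and without EED-/- replicate 3 (adjusted p = 0.0131). Of 10 cartilage matrix genes known as targets of Sox9 with SoxD, 4 were higher and the others not called. Over all tested genes 11.7% were higher. The 4 were Col11a2 at 2.22-fold (adjusted p = 0.00202), Acan at 1.93-fold (adjusted p = 0.00375), Col10a1 and Matn1. The last 2 were near the floor, and their WT libraries alone were under the filter on low counts. Col10a1 had 39 counts over the EED-/- and 10 over the WT libraries, and Matn1 62 and 23. The call of Matn1 was lost in 8 of 13 alternative fits and that of Col10a1 in 3. Of the 10 genes, 2 were higher without EED-/- replicate 1 or WT replicate 3.

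The SoxE genes, which specify glia, were not called by edgeR with TMM scaling on all 6 libraries or by DESeq2. Of the 3, 1 had an unadjusted p under 0.05. Sox8 was called higher with upper-quartile scaling (adjusted p = 0.0395) and Sox10 without EED-/- replicate 3 (adjusted p = 0.0308). Sox10, the master factor of oligodendroglia, was at 120, 151 and 88.2 CPM in EED-/-, against 102, 81.0 and 91.5 CPM in WT. Sox8 was at 86.1, 104 and 83.8 CPM in EED-/-, against 74.8, 64.5 and 78.1 CPM in WT. Sox9, a factor of astrocytes and Bergmann glia, was at 25.2, 31.6 and 25.0 CPM in EED-/-, against 32.5, 29.5 and 26.8 CPM in WT. Sox10 and Sox9 overlapped between genotypes, whereas all EED-/- values of Sox8 were above WT (adjusted p = 0.175, 0.560 and 0.0935 for Sox10, Sox9 and Sox8). Sox8 overlaps the opposite-strand gene 2810468N07Rik, which was not called. Of 12 Bergmann glia and astrocyte markers 2 were higher and 4 lower, Slc1a3, Gdf10 and Hopx among the lower ones, with sums of 4862 to 6686 CPM in EED-/- and 5805 to 6090 CPM in WT libraries; 1 was higher without EED-/- replicate 1, EED-/- replicate 2 or WT replicate 3 and under the replicate block.

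Oligodendrocyte lineage markers are given beside these genes. Of 10 progenitor markers 7 rose and 3 were not called, with sums of 1515 to 1883 CPM in EED-/- and 1136 to 1244 CPM in WT libraries, led by Pdgfra (1.48-fold, adjusted p = 0.00522); 3 were higher without EED-/- replicate 1, EED-/- replicate 2 or WT replicate 3. Of 12 myelin genes 4 fell (Opalin, Mog, Mal and Mobp) and 8 were not called, with sums of 19610 to 22150 CPM in EED-/- and 19840 to 24170 CPM in WT libraries; 2 were lower with upper-quartile scaling and without EED-/- replicate 1, EED-/- replicate 2 or WT replicate 3. Of 12 tested genes linked to Sox10 in oligodendroglia and Schwann cells, Ednrb rose (1.52-fold, adjusted p = 0.0208) and the others were not called; the Ednrb call was lost without EED-/- replicate 1 or 2. No defining marker of these lists was at 0. The part of these cells in the Sox6 difference was not tested.

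SoxC factors drive the maturation of newborn neurons. None was called by edgeR with the filter on all 6 libraries, or by DESeq2. Sox4 was at 72.0, 78.3 and 60.8 CPM in EED-/-, against 70.7, 75.1 and 62.6 CPM in WT. Sox11 was at 35.6, 36.6 and 30.3 CPM in EED-/-, against 40.5, 46.6 and 44.7 CPM in WT. Sox12 was at 33.7, 44.6 and 27.9 CPM in EED-/-, against 53.7, 45.5 and 51.0 CPM in WT. Sox11 and Sox12 had every EED-/- library below every WT library (adjusted p = 0.0557 and 0.0640; 2 of the 3 SoxC genes had an unadjusted p under 0.05), and Sox12 was called lower without the filter (adjusted p = 0.034) and without EED-/- replicate 2 (adjusted p = 0.0198). Of 10 genes linked to SoxC in new neurons 5 fell and 1, Tubb3, rose. The falls were led by Neurod1 (8.73-fold, adjusted p = 5.12e-05), Prox1 (2.05-fold, adjusted p = 0.00135) and Mex3a (1.89-fold, adjusted p = 0.00231). Over the alternative fits 4 or 5 of the 10 were lower and 0 to 3 higher. Neurod1 is also among the granule neuron markers, and Tubb3, Dcx, Stmn1 and Nhlh1 are also among the immature neuron markers. Of 8 immature neuron markers 2 were higher and 5 lower, with sums of 1134 to 1421 CPM in EED-/- and 1379 to 1607 CPM in WT libraries; 1 was higher without EED-/- replicate 1 or 2 or WT replicate 2 or 3 and under the replicate block. Tubb3 rose 1.39-fold (adjusted p = 0.0436), a call lost without EED-/- replicate 1 or 2, WT replicate 2 or 3, and under the replicate block.

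SoxF factors belong to endothelium, and all 3 were uncalled by edgeR and DESeq2, 1 with an unadjusted p under 0.05. Sox17, Sox18 and Sox7 averaged 7.93 ± 0.965, 7.54 ± 2.42 and 3.97 ± 0.743 CPM in EED-/-, and 6.87 ± 0.912, 6.97 ± 1.92 and 2.73 ± 0.289 CPM in WT libraries (adjusted p = 0.422, 0.803 and 0.102). Of 14 endothelial and mural markers 4 rose (Acta2, Kdr, Tek and Rgs5) and 10 were not called, with sums of 657 to 755 CPM in EED-/- and 513 to 564 CPM in WT libraries; 1 was higher without EED-/- replicate 1, EED-/- replicate 2 or WT replicate 3. Of 9 tested genes linked to SoxF, Vcam1 rose 1.88-fold (adjusted p = 0.000988), Tek rose 1.34-fold (adjusted p = 0.0278) and the Notch ligand Dll4 fell 1.70-fold (adjusted p = 0.0102); 1 was higher without EED-/- replicate 1, EED-/- replicate 2 or WT replicate 3.

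Forkhead genes of mesenchyme and meninges rose in part. Foxc1, required for meninges and for the cerebellum next to them, was at 11.1, 15.1 and 10.7 CPM in EED-/-, against 7.23, 6.76 and 6.61 CPM in WT (log2 fold change 0.84, SE 0.17, adjusted p = 0.00926). Foxc2, its paralogue, was at 2.51, 4.47 and 2.25 CPM in EED-/-, against 1.13, 1.61 and 1.34 CPM in WT (log2 fold change 1.18, SE 0.32, adjusted p = 0.0274). Foxd1, a factor of stroma and pericyte precursors, was at 4.78, 7.90 and 3.18 CPM in EED-/-, against 2.41, 2.04 and 1.96 CPM in WT (log2 fold change 1.30, SE 0.33, adjusted p = 0.0201). In each of these genes EED-/- replicate 2 was the highest library. This was not particular to them: the same library was highest for Sox21, Sox3, Sox6, Foxj1 and Sox10, among others. For Foxb1, Sox14 and Sox2 another library was the highest.

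The summed level of meningeal fibroblast markers had the same highest library, though Lum was highest in EED-/- replicate 3 and Cxcl12 in WT replicate 1. Of 10 markers 9 rose and Cxcl12 was not called, and their sums were 1370, 1988 and 1362 CPM in EED-/-, against 865, 783 and 784 CPM in WT; without WT replicate 3, 6 were higher. Collagen Col3a1 rose 2.71-fold (adjusted p = 0.00121) and the growth factor Igf2 2.61-fold (adjusted p = 0.000467). No marker was at 0, and the part of these cells in the Foxc and Foxd1 differences was not tested.

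Foxc1 lies with Foxq1 and Foxf2 on chromosome 13, and Foxf1, Foxc2 and Foxl1 form the related cluster on chromosome 8. In the first, Foxq1 (31556134 to 31560976) averaged 7.27 ± 1.90 CPM in EED-/- and 6.41 ± 0.667 CPM in WT libraries, and Foxf2 (31625816 to 31631403) averaged 7.56 ± 2.88 CPM in EED-/- and 6.04 ± 1.48 CPM in WT libraries. Neither was called (adjusted p = 0.576 and 0.464), whereas Foxc1 (31806633 to 31812476) was; the difference between neighbours was not tested. In the second, Foxc2 (121116171 to 121118895) was called and Foxf1 (121084386 to 121088144), of splanchnic mesoderm, was not, at 1.70, 2.30 and 2.01 CPM in EED-/-, against 1.13, 1.29 and 1.19 CPM in WT (adjusted p = 0.0565). Foxf1 was called with upper-quartile scaling (adjusted p = 0.034), library size alone (adjusted p = 0.0372) and RLE (adjusted p = 0.0498), and not by DESeq2 (adjusted p = 0.2). Fendrr, the noncoding gene next to Foxf1, listed after its value was seen, rose 1.93-fold (adjusted p = 0.0407), a call lost in 9 of 13 alternative fits. Gm20388, annotated across Foxf1, Foxc2 and Foxl1, was not called (adjusted p = 0.117) except with upper-quartile scaling. Foxl1 had 7 counts over the EED-/- and 3 over the WT libraries.

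Of the remaining low forkhead genes, Foxm1 rose and the others were not called. Foxm1, which activates genes of the G2 phase and mitosis, was at 8.47, 7.85 and 5.48 CPM in EED-/-, against 4.46, 3.81 and 5.01 CPM in WT (log2 fold change 0.71, SE 0.21, adjusted p = 0.0385). The lowest EED-/- library stood just above the highest WT library. Tex52, an annotated gene that overlaps it on the same strand, was not called. Of 14 known FoxM1 targets of mitosis 6 were not called and 8 rose, among them cyclin B1, Ccnb1 (2.21-fold, adjusted p = 0.00289), survivin, Birc5 (2.20-fold, adjusted p = 0.00805), and Aurkb (2.36-fold, adjusted p = 0.0150). Only 2 or 3 targets were higher without EED-/- replicate 2, EED-/- replicate 1 or WT replicate 3.

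Foxl2, the ovarian factor, was at 2.18, 2.92 and 1.86 CPM in EED-/-, against 1.18, 0.858 and 1.76 CPM in WT, and was not called (adjusted p = 0.0801), and its opposite-strand neighbour Foxl2os was also not called (adjusted p = 0.0928) except without WT replicate 2. Foxs1, of pericytes, averaged 1.54 ± 0.581 CPM in EED-/- and 1.13 ± 0.246 CPM in WT libraries, and the X-linked Foxr2 1.02 ± 0.114 CPM in EED-/- and 0.767 ± 0.442 CPM in WT libraries. Foxp3, the factor of regulatory T cells, was untested at 0.270 ± 0.0679 CPM in EED-/- and 0.572 ± 0.260 CPM in WT libraries, and its exons overlap those of Ppp1r3f, Gm36995, Flicr and Ccdc22, so its few reads are uncertain. Ccdc22 fell 1.46-fold (adjusted p = 0.0178), a call lost in 5 of 13 alternative fits, and the others were not called. Sox15, with 4 counts in all, overlaps Mpdu1, which fell 1.37-fold (adjusted p = 0.0359), a call lost in 9 of 13 alternative fits.

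Foxj1, the switch for motile cilia in ependyma and choroid plexus, was at 15.5, 20.8 and 18.5 CPM in EED-/-, against 12.9, 8.15 and 10.5 CPM in WT. The groups did not overlap (log2 fold change 0.79, SE 0.19, adjusted p = 0.0184). Of 16 tested cilium genes known as Foxj1 targets 4 rose and 1 fell: Tekt1 (2.45-fold, adjusted p = 0.00444), Rsph4a (2.04-fold, adjusted p = 0.0110), Dnah5 (1.81-fold, adjusted p = 0.0174) and Spag6l (1.85-fold, adjusted p = 0.0223) were higher and Dnah11 (1.84-fold, adjusted p = 0.0430) lower. The lower call was lost with upper-quartile scaling, library size alone, the replicate block, and without EED-/- replicate 1 or 2 or WT replicate 2 or 3. Ependymal and choroid plexus markers summed to 394 to 819 CPM in EED-/- and 785 to 818 CPM in WT libraries, with Dnah5 and Tmem212 higher and Rarres2 lower among 12. These counts were 0 to 2 in each direction over the alternatives, and no marker was at 0. The call of Rarres2 was lost in 12 of 13 alternative fits, that of Tmem212 in 8 and that of Dnah5 in 2. Dnah5 is also among the Foxj1 targets. The part of ependymal and choroid plexus cells in the Foxj1 difference was not tested.

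Among members used in WT, the forkhead genes Foxn2, Foxo3 and Foxj2 had the largest falls. Foxn2 (ENSMUSG00000034998.18, chromosome 17, 88440711 to 88490533) was at 18.1, 23.7 and 26.1 CPM in EED-/-, against 63.4, 79.9 and 76.5 CPM in WT. The highest EED-/- library lay far below the lowest WT library (log2 fold change -1.70, SE 0.16, adjusted p = 0.00029). Foxj2 was at 29.8, 29.3 and 28.4 CPM in EED-/-, against 65.0, 46.7 and 47.4 CPM in WT (log2 fold change -0.86, SE 0.15, adjusted p = 0.00393). Foxn3, a repressor linked to cell cycle checkpoints, was at 75.4, 73.3 and 83.5 CPM in EED-/-, against 95.3, 127 and 96.7 CPM in WT (log2 fold change -0.46, SE 0.14, adjusted p = 0.0408).

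FoxO factors act under insulin and growth factor signalling, which keeps them out of the nucleus, and their targets include cell cycle inhibitors and stress genes. Foxo3 (ENSMUSG00000048756.11, chromosome 10, 42181841 to 42276755) was at 94.4, 88.8 and 96.3 CPM in EED-/-, against 284, 192 and 189 CPM in WT. The EED-/- libraries lay within 10 CPM of each other and below every WT library, of which replicate 1 was the highest (log2 fold change -1.25, SE 0.17, adjusted p = 0.00143). Foxo1 was at 30.8, 26.8 and 30.7 CPM in EED-/-, against 45.2, 30.4 and 34.9 CPM in WT. Foxo1, Foxo4 and Foxo6 were not called (adjusted p = 0.168, 0.0690 and 0.127); Foxo4 averaged 18.8 ± 0.850 CPM in EED-/- and 24.9 ± 4.23 CPM in WT libraries, and Foxo6 5.88 ± 1.91 CPM in EED-/- and 3.76 ± 0.750 CPM in WT libraries. Foxo6 was called higher without EED-/- replicate 3 (adjusted p = 0.029).

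Of 18 known FoxO targets 6 fell and 12 were not called. The cell cycle inhibitor Cdkn1b (p27) fell to 52.3 ± 4.74 CPM in EED-/-, against 154 ± 11.0 CPM in WT libraries (adjusted p = 9.95e-05). Ccng2, an atypical cyclin of quiescent cells, fell 2.43-fold (adjusted p = 0.000275) and the pro-apoptotic Bcl2l11 1.98-fold (adjusted p = 0.000544). Txnip, Sesn1 and Pik3ip1 were the other lower targets. The number of lower targets was 6 or 7 in each of the 13 alternative fits, and with upper-quartile scaling 1 target was higher. All tested genes were lower in 14.1% of cases, and tested genes used in WT, the class of all 6 lower targets, in 17.8%. Granule neuron markers fell in the same libraries. The part of granule neurons in the fall of Foxo3, Foxn2, Foxj2 and these targets was not tested.

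The Foxp factors, which shape neuronal identity and circuits, were not called by edgeR on all 6 libraries, and 1 of the 3 tested had an unadjusted p under 0.05. Foxp2, a marker of Purkinje cells and cerebellar nuclei, was at 42.6, 30.4 and 38.4 CPM in EED-/-, against 3.33, 18.2 and 12.9 CPM in WT. Every EED-/- library stood above every WT library, but WT replicate 1 was 5.45-fold below WT replicate 2, the widest WT spread among the used members. The log2 fold change was 1.70 (SE 0.53, adjusted p = 0.0623). It was called by DESeq2 (adjusted p = 0.0371), by limma-voom (adjusted p = 0.0404) and without WT replicate 1, where the log2 fold change was 1.31 (adjusted p = 0.00344). Foxp1 was at 33.9, 30.5 and 36.2 CPM in EED-/-, against 32.8, 39.1 and 36.2 CPM in WT. Foxp4 was at 76.9, 90.1 and 61.4 CPM in EED-/-, against 82.3, 54.9 and 65.2 CPM in WT. For Foxp1 and Foxp4 the genotypes overlapped.

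Broadly expressed forkhead genes made up the rest. Foxk1 was at 60.6, 62.1 and 57.7 CPM in EED-/-, against 83.8, 62.6 and 66.2 CPM in WT. Foxk2 was at 109, 105 and 103 CPM in EED-/-, against 135, 103 and 109 CPM in WT. Foxk proteins repress autophagy and support glycolysis, and the pair was not called (adjusted p = 0.226 and 0.479), although every EED-/- value of Foxk1 was below WT. Foxj3 was at 69.1, 58.2 and 71.2 CPM in EED-/-, against 79.1, 80.5 and 76.9 CPM in WT, every EED-/- value below WT but not called (adjusted p = 0.14). Frg2f1, which overlaps the start of Foxj3 on the opposite strand, was not called.

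Levels of different genes were compared per kb of exon. In EED-/- libraries the highest members were Sox10, Sox8, Sox2 and Foxk2, at 39.3, 29.3, 20.3 and 20.1 CPM per kb, and Foxo3 stood at 12.3. In WT libraries Sox10 lay at 26.5 to 33.5 and Foxo3 at 24.9 to 37.5 CPM per kb, followed by means of 23.2 for Sox8, 22.0 for Foxk2, 14.5 for Sox4 and 14.3 for Sox2. Neighbours in this order overlapped between libraries: Sox10 with Foxo3, Sox8 with Foxk2, and Sox4 with Sox2 in WT. The risers from the silent and low classes remained far below these, Sox14 at 1.89 and Foxb1 at 1.25 CPM per kb in EED-/- libraries, against 0.365 and 0.321 in WT libraries.

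**Figure D5:**
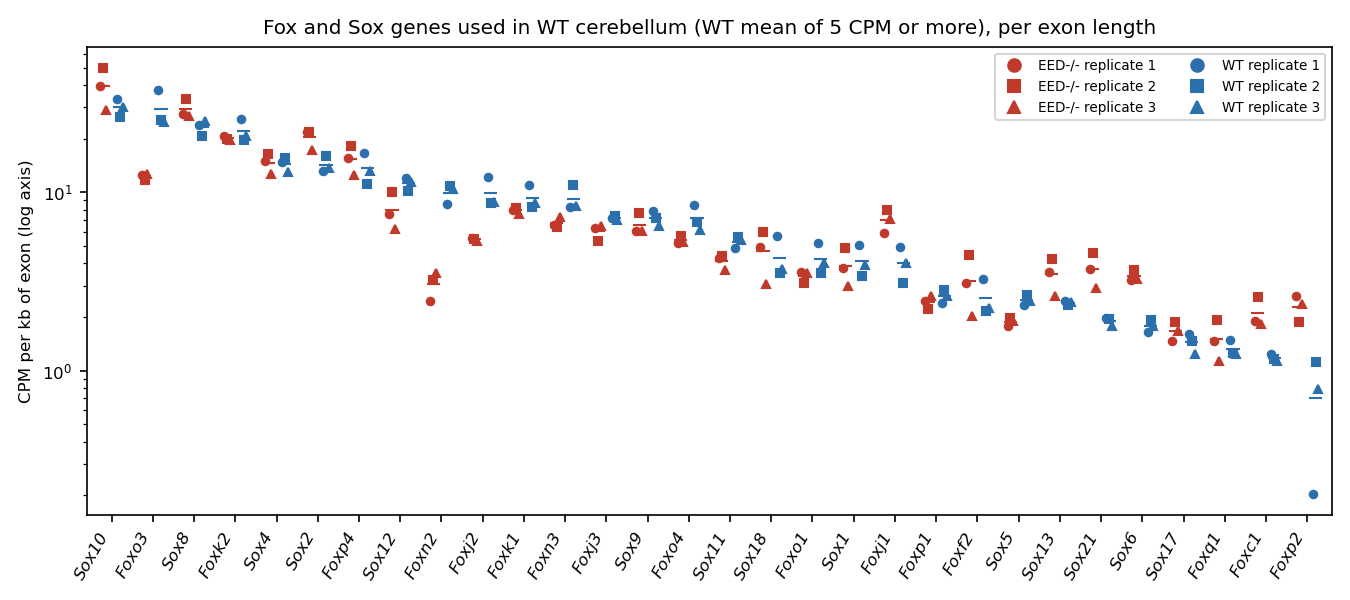
Level per kb of exon (y axis, CPM per kb, log axis; horizontal lines are means of 3 libraries) of the 30 members used in WT, ordered by WT mean. Foxo3, Foxn2 and Foxj2 drop out of the WT order in EED-/- libraries, and WT replicate 1 is the lowest point, in Foxp2.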

How the data were processed

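The deposited table holds estimated counts per gene, with totals that differ between libraries: 22.5% to 23.6% of values per library were not whole to within 1e-06. Tools listed in the submitters' processing notes, with no role given, are Salmon 1.1.0, DESeq2 1.26.0, MACS2, Bowtie2 2.4.1 and Trimmomatic 0.36, and the builds GRCm38 and mm10. The authors' deposited table of differences, per the file headers a DESeq2 table, gave symbols, gene types, log2 fold changes with log2 standard errors, a Wald score and adjusted p-values; only symbols, types, log2 fold changes and adjusted p-values were used. How reads shared by similar genes were split is not stated in any source used here.

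Counts were rounded, genes kept by filterByExpr (18091 left), scaled by TMM and tested two-sided for genotype alone with edgeR 4.0.16 (R 4.3.3). Procedures were tested on simulated data. Alternatives were RLE, upper-quartile and no scaling, no filter, DESeq2 1.42.0, limma-voom (limma 3.58.1), a replicate block, and leaving out each library. Positions and exon lengths came from GENCODE M21 (GRCm38), matched for all 63 members, promoters from RefSeq GRCm38.p6.

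Replicates of a genotype differed by more than sampling noise, with chi-square over its degrees of freedom from 8.36 to 55.2. One gene is counted among the members but not reported here by name or in the figures; per-library values are given for called members, for uncalled members of at least 20 CPM in both genotypes, and for others chosen after their values were seen (the silent genes with signal, Foxp2, Foxf1, Foxl2, Sox1, Slc6a3 and Th). Of marker and target lists up to 3 called genes with the smallest adjusted p are named, and others after their values were seen. Members, lists and classes were chosen with earlier results of these data known.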

Additional observations from a re-analysis of the deposited data

How the results depend on the processing

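Eed kept its direction and call in all alternatives, with log2 fold changes from -1.18 to -1.01. Of 221 refits of the 17 called members, 180 kept the call, 41 lost it and 0 turned round. Of 351 refits of the 27 uncalled tested members, 322 stayed uncalled in the same direction, 17 were called and 12 turned round, all uncalled. With upper-quartile scaling the log2 fold change turned to 0.013 for Foxp1, 0.016 for Sox1 and 0.062 for Ppp1r3f, which overlaps Foxp3, and with library size alone to 0.0056 for Sox1 and 0.0496 for Ppp1r3f. With single libraries left out the sign varied for Foxk2 (-0.22 to 0.045), Foxq1 (-0.032 to 0.40), Sox1 (-0.29 to 0.13), Sox18 (-0.11 to 0.41), Sox4 (-0.064 to 0.17) and Sox9 (-0.24 to 0.0035), and for the overlapping genes Flicr (-0.53 to 0.19), Frg2f1 (-0.11 to 0.22) and Ppp1r3f (-0.17 to 0.14). Fox genes were 7 higher and 4 lower, Sox genes 5 higher and 1 lower; by WT class, 1 silent, 6 low and 5 used genes were higher and 5 used genes lower. Upper-quartile scaling and library size alone each gave 0 lower Sox genes and 3 lower used genes. Without the filter 11 Fox genes and 5 silent genes were higher, the added ones being untested in the filtered fit. Silent genes called higher numbered 3 with DESeq2 and 2 with limma-voom. With silent set at under 0.1 CPM 0 were higher, at under 1 CPM 3, and with used set from 10 CPM 3 used genes were higher, since the limits move genes between classes. Same-numbered libraries did not deviate together (r = 0.0276, -0.233 and -0.00125), so the numbers were not taken to pair them; with the replicate block 3 Sox genes were higher, 0 Sox genes lower and 3 used genes lower, and all genes called fell in number to 1505 higher and 1706 lower. With each library left out in turn there were 3 to 11 higher and 3 to 4 lower Fox genes, 3 to 7 higher and 0 to 1 lower Sox genes, 1 to 4 silent, 2 to 7 low and 3 to 7 used genes higher, and 3 to 5 used genes lower, with 0 low genes lower in each. The cause of calls lost to scaling, tool or a left-out library was not tested. At 19621814 to 20366173 counts per library, members under 0.5 CPM rest on about 10 counts or fewer per library.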

Other observations

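The authors' deposited table lists an adjusted p under 0.05 for 15 members with a higher and 5 with a lower level in EED-/-, of 61 with a p-value; the additional higher ones were Foxa1, Foxa2 and Foxp2, at log2 fold changes of 2.99, 5.43 and 1.73. Serotonin neuron genes varied within genotypes: Slc6a4 and Tph2 together were at 36.7, 56.5 and 34.4 CPM in EED-/-, against 46.4, 3.65 and 30.9 CPM in WT, and neither was called. Blood genes summed to 1775, 1264 and 355 CPM in EED-/-, against 555, 255 and 312 CPM in WT, with none of 5 called by edgeR, 4 at an unadjusted p under 0.05, 1 by DESeq2, 2 under the replicate block and 5 without EED-/- replicate 3.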
